A study of Mus musculus with 9 samples.

Results

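AcH2B-only control regions deep inside genes are stretches of chromatin that carried a peak of acetylated histone H2B (AcH2B) in control cells, far from the ends of any protein-coding gene and without a peak of acetylated histone H3 (AcH3). They were the regions of the AcH2B siControl list on chromosomes 1 to 19 and X that had no base in common with an AcH3 siControl region, whose midpoint lay inside a protein-coding gene span and more than 10 kb from every protein-coding gene end. Of 20043 AcH2B siControl regions on these chromosomes, 3468 (17.3%) met the rule. They are called deep regions below, and the gene that holds one is called its host. The other AcH2B siControl regions were 3002 AcH2B-only regions near gene ends, 6634 AcH2B-only regions between genes and 6939 regions shared with AcH3.

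The study used 3T3-L1, a mouse preadipocyte line that can be induced to become adipocyte-like. The cells received a negative control siRNA (siControl), an siRNA against ME1, the cytosolic malic enzyme that makes NADPH (siME1), or an siRNA against the mitochondrial malic enzyme ME2 (siME2). Differentiation was induced 2 days later and the cells were fixed with 1% formaldehyde 7 days after induction, so all 9 libraries come from induced cells. Chromatin immunoprecipitation and sequencing (ChIP-seq) was done with antibodies against AcH2B, AcH3 and the deacetylase HDAC3, with 1 library for each of the 9 combinations of antibody and siRNA. The series title names NADPH, histone acetylation and HDAC3. No knockdown check and no expression data were used here. Without replicates no condition could be tested, so every value below describes these libraries, and the 95% Wilson intervals given for shares cover counting error only.

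The labels call the cells preadipocytes although the protocol has them induced. Of 10 preadipocyte and fibroblast marker genes, 10, 9 and 9 had an AcH3 region within 1 kb of a gene end in siControl, siME1 and siME2, against 3, 3 and 3 of 10 adipocyte marker genes. In the AcH2B lists the counts were 9, 9 and 10 for the first set and 0, 3 and 3 for adipocyte markers. The lists differed in length: AcH2B held 20043, 54645 and 32461 regions in siControl, siME1 and siME2, and AcH3 held 21991, 34794 and 28411. Their median folds over background were 4.16, 3.94 and 4.17 for AcH2B and 5.70, 4.30 and 4.19 for AcH3. The weakest listed peak over low background needed 8 fragments in AcH3 siControl and 11 in AcH2B siControl, and 9 to 10 in the knockdown acetylation libraries. The HDAC3 lists were shorter, with 4555, 5178 and 1582 regions, and only 331 of the 4555 siControl regions reached a −log10 q of 1.3.

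Acetylation of the histone tails of H2B and H3 is laid down by acetyltransferases and removed by deacetylases such as HDAC3, which works within corepressor complexes. AcH3 is best known at active promoters, while acetylation inside introns often marks enhancers, which can act on the gene they lie in or on a neighbour. H2B acetylation is known from active enhancers as well as promoters. The antibodies, as labelled, name no single lysine.

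A start of transcription inside a deep region was the exception. Only 45 of 3468 (1.3%) lay within 1 kb of a RefSeq transcript start, and 23 overlapped one of 22 start windows of 21 genes, each window running from 250 bases before to 50 bases after a start. Of the 21 genes, 5 were the host itself, at an internal start (Pacsin2, Ablim1, Tm4sf1, Tcf12 and Plac1), and the others were long non-coding RNAs (lncRNAs) nested in the host. The windows below were chosen after their values were seen. Some lie under deep regions of a few of the genes that held many of them (Dgki, Arnt2, Mylk, Egfr). Others show an internal start of a transcription factor gene (Tcf12) and a start flanked by a pair of deep regions (Tnrc6a). All windows shown are RefSeq sequences of GRCm38.p6, 5′ to 3′ on the strand of the named gene. Matches to the AP-1 motif TGANTCA, the C/EBP motif TTGCNNAA and the TEAD motif GGAATG on either strand are in capitals.
Gm52857 in Dgki, chr6:36903283-36903582: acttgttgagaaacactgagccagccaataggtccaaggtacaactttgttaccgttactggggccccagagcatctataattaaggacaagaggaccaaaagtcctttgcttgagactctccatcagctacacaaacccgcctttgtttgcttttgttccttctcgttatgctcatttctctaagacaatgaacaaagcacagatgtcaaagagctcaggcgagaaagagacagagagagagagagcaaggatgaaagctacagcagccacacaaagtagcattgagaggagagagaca
Gm30873 in Arnt2, chr7:84336585-84336884: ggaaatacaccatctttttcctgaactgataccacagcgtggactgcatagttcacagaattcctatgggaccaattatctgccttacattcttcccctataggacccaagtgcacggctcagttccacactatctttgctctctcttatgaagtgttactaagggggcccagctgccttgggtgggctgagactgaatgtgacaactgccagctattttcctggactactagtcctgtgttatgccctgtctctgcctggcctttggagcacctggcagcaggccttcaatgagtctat
1700119H24Rik in Mylk, chr16:34939280-34939579: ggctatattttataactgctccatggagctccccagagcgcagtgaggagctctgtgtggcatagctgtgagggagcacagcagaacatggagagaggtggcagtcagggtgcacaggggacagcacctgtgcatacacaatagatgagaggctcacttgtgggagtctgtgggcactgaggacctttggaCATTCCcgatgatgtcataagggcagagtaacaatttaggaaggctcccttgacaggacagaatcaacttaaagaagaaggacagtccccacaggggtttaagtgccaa
Egfros in Egfr, chr11:16830629-16830928: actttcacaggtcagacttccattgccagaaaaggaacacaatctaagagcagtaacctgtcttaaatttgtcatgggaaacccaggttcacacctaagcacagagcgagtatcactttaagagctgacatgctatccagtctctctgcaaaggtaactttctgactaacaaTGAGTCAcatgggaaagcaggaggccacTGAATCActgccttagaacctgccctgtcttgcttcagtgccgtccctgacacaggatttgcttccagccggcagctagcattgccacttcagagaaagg
Tcf12, chr9:71896047-71896346: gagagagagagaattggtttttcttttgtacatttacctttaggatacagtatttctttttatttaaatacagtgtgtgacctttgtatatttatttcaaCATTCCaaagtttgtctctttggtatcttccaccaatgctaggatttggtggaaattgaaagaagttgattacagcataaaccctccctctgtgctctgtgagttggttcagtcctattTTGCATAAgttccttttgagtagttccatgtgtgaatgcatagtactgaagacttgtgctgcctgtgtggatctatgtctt
Gm39084 in Tnrc6a, chr7:123098189-123098488: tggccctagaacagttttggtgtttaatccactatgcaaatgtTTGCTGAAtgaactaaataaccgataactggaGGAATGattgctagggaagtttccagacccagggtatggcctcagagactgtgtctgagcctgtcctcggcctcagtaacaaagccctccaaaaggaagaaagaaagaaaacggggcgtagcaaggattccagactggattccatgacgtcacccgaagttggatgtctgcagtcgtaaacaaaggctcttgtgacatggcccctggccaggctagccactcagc

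The Egfros window holds a pair of AP-1 matches and the Tcf12 and Gm39084 windows each hold a C/EBP and a TEAD match, whereas the Gm52857 and Gm30873 windows hold none of the 3 motifs. Among the 22 windows at deep regions, TEAD letters stood in 10 (45.5%, 26.9 to 65.3) and in 14.6% of all 32619 RefSeq mouse start windows. C/EBP letters stood in 6 (27.3%, 13.2 to 48.2) against 10.9% of all, and AP-1 letters in 3 (13.6%, 4.75 to 33.3) against 7.85%. Of these 3 AP-1 windows, 2 are overlapping windows of Egfros that share the same pair of matches, so they mark 2 separate places, Egfros and Gm30284. The short CTCF core CCCTC, which is not capitalised above, stood in 63.6% against 66.3%, and the NF1 palindrome in 0 against 0.0368%. Matches were counted on both strands, and matches that overlap run together in the capitals. Base composition differed too: the median GC content was 48.0% at deep regions and 53.0% over all windows, and its part in the motif counts was not tested. Few deep regions have a start window, so these shares say nothing of the rest.

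The regions under the windows shown were all free of AcH3 in control cells by rule, and each carried it in at least 1 knockdown. This does not hold for all 23 regions at start windows. Those in Gulp1, Dnm3, Pacsin2, Prkce, Ablim1 and Tmem150c had no AcH3 listed in either knockdown. Syn3, which held more deep regions than any host shown, also had start windows at deep regions, of Gm51812 and Gm35636, which are not shown. The deep region at Gm51812 had no AcH2B listed in either knockdown and AcH3 in siME2 alone, at 4.46. Those at Gm35636 had AcH2B listed in both knockdowns. At Gm52857, inside Dgki, the AcH2B fold over background ran 7.55, 12.5 and 7.57 in siControl, siME1 and siME2 (the order used throughout, with the strongest overlapping region giving the knockdown value), and AcH3 stood at 6.37 and 4.68 in the knockdowns. At Gm30873, inside Arnt2, AcH2B ran 5.72, 10.3 and 9.69, with AcH3 at 6.41 and 7.07. At 1700119H24Rik, inside the myosin light chain kinase gene Mylk, AcH2B ran 4.22, 13.2 and 10.4, with AcH3 at 9.96 and 3.47. The AcH2B values at 1700119H24Rik come from wider regions, and the summits inside its deep region stood at 3.85 and 4.11 for AcH2B, with an AcH3 summit in siME2 alone, at 3.47. By overlap, these 3 lncRNA starts had listed AcH2B in all 3 libraries and AcH3 in both knockdowns. At Egfros, AcH2B ran 4.36, 5.25 and 4.56, and AcH3 was listed in siME2 alone, at 4.17. At the internal start of Tcf12, which encodes a basic helix-loop-helix factor, AcH2B stood at 4.28 with the control siRNA and 4.56 in siME1, AcH3 at 5.03 in siME1, and neither mark was listed in siME2. The stronger of the regions flanking Gm39084 had AcH2B at 5.70, 7.43 and 3.96 and AcH3 at 3.44 and 4.64. HDAC3 was listed in no library at any of these regions.

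The values that chose the deep regions can only be described. Their AcH2B siControl fold over background, the deposited ratio of summit pileup plus 1 to local background plus 1, ran from 2.25 to 9.95 with a median of 3.96 and quartiles of 3.43 and 4.55. The median summit held 18 fragments (11 to 54), the median −log10 p was 6.70 and the median width 411 bp (290 to 4149 bp). A total of 408 (11.8%) held more than 1 summit. The median fold was 4.0 for both other AcH2B-only classes, and 4.53 for regions shared with AcH3, which were also wider at 553 bp. Local background at the deep regions had a median of 1.39 times, and at most 4.11 times, the lowest background of the library.

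AcH3 was absent from the deep regions by choice, yet often lay close by. The nearest AcH3 siControl region was a median of 14.3 kb away, within 10 kb for 1532 deep regions (44.2%) and within 1 kb for 613 (17.7%). AcH2B-only regions near gene ends had AcH3 within 1 kb in 28.1% and those between genes in 12.7%. The median distance to the nearest protein-coding gene end was 40.6 kb, with quartiles of 21.0 and 81.4 kb. The regions nearest to the 10-kb limit on the inside lay in Notch1 (10008 bp, fold 5.57), Syn3 (10010 bp, 2.94) and Med12l (10036 bp, 4.08), and on the outside in Aspscr1 (9973 bp, 5.85), Zcchc24 (9963 bp, 5.07) and Epyc (9944 bp, 3.59).

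In the AcH2B lists of the knockdown cells most deep regions were found again. A region of AcH2B siME1 overlapped 2858 of 3468 (82.4%, 81.1 to 83.6), where 87.2% of all AcH2B siControl regions were overlapped. A region of AcH2B siME2 overlapped 2138 (61.6%, 60.0 to 63.3), where 69.1% of all were. The other AcH2B-only classes stood at 84.0% and 83.4% in siME1 and at 62.6% and 62.8% in siME2, close to the deep regions. Regions shared with AcH3 stood apart, at 94.6% and 81.6%. The siME1 list covered 76.8% of the bases of the deep regions and 1.49% of all gene bases more than 10 kb from gene ends, and the siME2 list 53.8% and 0.701%.

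AcH3, which the rule kept out of these regions in control cells, was listed at a large share of them after knockdown. AcH3 siME1 overlapped 1819 deep regions (52.5%, 50.8 to 54.1) against 64.4% of all AcH2B siControl regions, and AcH3 siME2 overlapped 1645 (47.4%, 45.8 to 49.1) against 57.6%. Those backgrounds include regions shared with AcH3, at 91.0% and 81.2%. By this count the deep regions had the highest AcH3 share among the AcH2B-only classes: near gene ends it was 51.1% and 44.4%, and between genes 48.7% and 44.2%. The intervals of the deep and between-gene classes did not overlap in either knockdown, and those of the deep and near-end classes overlapped. All intervals take regions as independent, although 72.3% of deep regions had another within 10 kb. In AcH3 siME2 deep regions were above between-gene regions at each strength below a siControl −log10 p of 12. At 12 or more they stood at 79.4% and 82.7%. Control AcH3 lay within 1 kb of 17.7% of deep and 12.7% of between-gene regions. Without those, the deep shares were 48.4% and 43.5%, and the other classes were not recomputed. AcH3 siControl listed fewer regions than either knockdown, and an AcH3 region absent from one list and present in another may differ little in signal. The rule requires an absence in 1 library, so some AcH3 in a second library follows from the choice; how much was not tested.

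**Figure D1:**
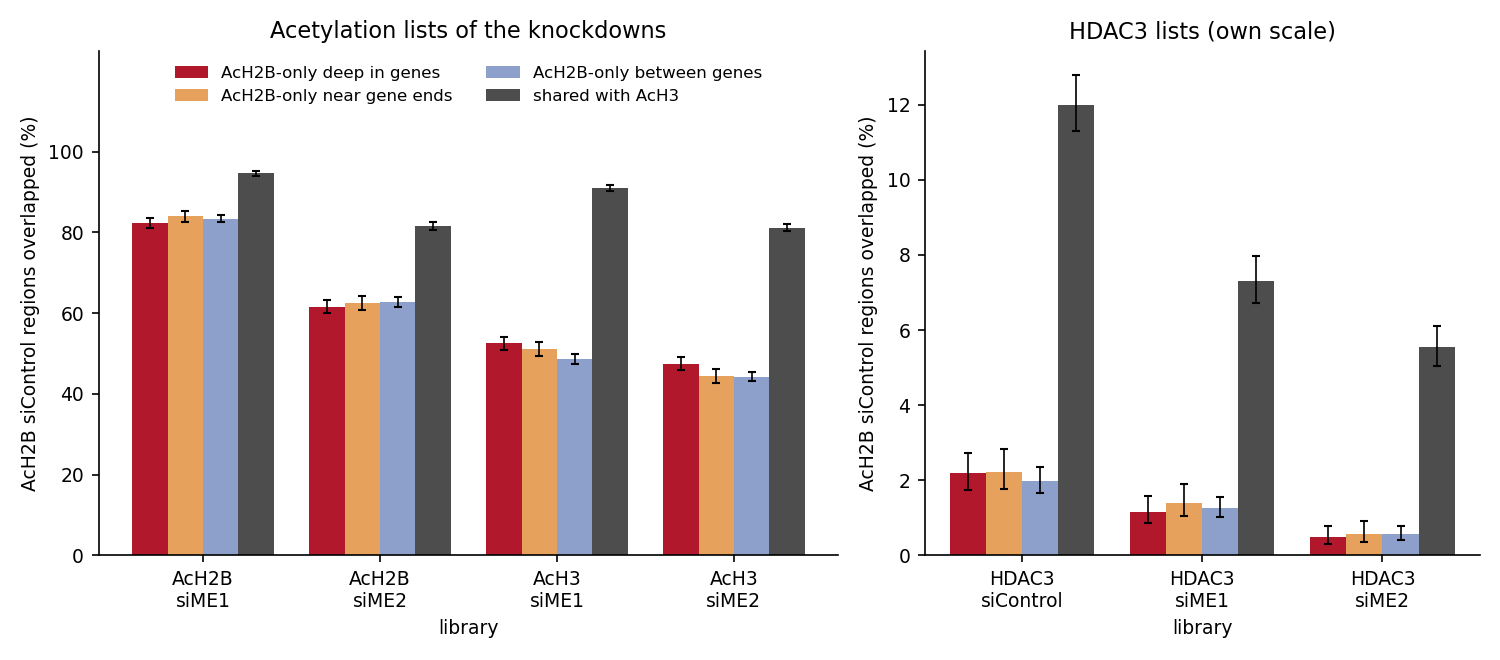
Share of the 4 classes of AcH2B siControl regions (percent, vertical axis) overlapped by 1 bp or more by a region of each other library, with 95% Wilson intervals as bars. The red bars, 3468 deep regions, stand beside the other AcH2B-only classes at 82.4% and 61.6% for AcH2B and 52.5% and 47.4% for AcH3, and below the regions shared with AcH3 in every library. The HDAC3 panel has its own scale.

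HDAC3 was rarely listed at the deep regions. It overlapped 76 in siControl (2.19%, 1.75 to 2.73; 5.53% of all AcH2B siControl regions), 40 in siME1 (1.15%; 3.36% of all) and 17 in siME2 (0.490%; 2.28% of all). Regions shared with AcH3 carried HDAC3 in 12%, 7.32% and 5.55%. Still, the HDAC3 siControl list covered 0.789% of deep region bases and 0.0349% of all gene bases more than 10 kb from gene ends. In all, 121 deep regions (3.49%) had HDAC3 in any library, 6 in both siControl and siME1, 5 in both siControl and siME2, and 2 in all 3. Only 5 of the 76 siControl overlaps, 3 of the 40 in siME1 and 0 of the 17 in siME2 were with a region whose −log10 q reached 1.3. Of the 76, 70 (92.1%) had AcH2B in siME1 and 63 (82.9%) had AcH3 in siME1, where 82.4% and 52.5% of all deep regions had them. The other classes were not counted this way, and peak strength was not matched.

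An overlap of 1 bp is a loose measure where the other list holds wide regions. The median AcH2B siME1 region at a deep region was 1220 bp wide, against 440 bp for the deep regions themselves, and 924 deep regions (26.6%) shared 1 siME1 region with another. The corresponding siME2 values were 756 bp and 478 regions (13.8%). When the other list had to place a summit inside the deep region, the shares were 62.7% and 46.4% for AcH2B in siME1 and siME2, 40.7% and 36.2% for AcH3, and 1.44%, 0.750% and 0.260% for HDAC3. The order of the knockdowns depended on the measure: a reciprocal overlap of 50% gave 23.1% in siME1 and 27.1% in siME2 for AcH2B, and lists cut to equal numbers of regions gave 36.5% and 39.6% for AcH3. On this count too the AcH2B-only classes lay together (62.7% to 65.2% in AcH2B siME1), and the class shared with AcH3 was higher, at 82.8%. For AcH3 in siME2 the deep regions stood at 36.2% (34.7 to 37.9) and the other AcH2B-only classes at 32.3% and 33.6%.

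Across the 3 AcH2B libraries, 1996 deep regions (57.6%) were listed in every one. A further 862 (24.9%) were listed in siControl and siME1, 142 (4.09%) in siControl and siME2, and 468 (13.5%) in siControl alone. AcH3 was listed in both knockdowns at 1174 (33.9%), in siME1 alone at 645 (18.6%), in siME2 alone at 471 (13.6%) and in neither at 1178 (34.0%). The marks went together within a knockdown: AcH3 siME1 stood at 60.6% of deep regions with AcH2B siME1 and at 14.4% of those without, and AcH3 siME2 at 63.1% and 22.2%. AcH2B and AcH3 were both listed in both knockdowns at 1010 (29.1%), and 362 (10.4%) had no acetylation listed in either. These combinations were counted for deep regions only, so nothing particular to deep regions is read from them. By single list, AcH2B siME1 and siME2 overlapped 87.2% and 69.1% of all AcH2B siControl regions, and AcH3 siME1 and siME2 64.4% and 57.6%. Seen from the AcH3 side, 5680 AcH3 siME1 regions lay deep in genes and off the AcH3 siControl list, and 29.7% of them overlapped a deep region, as did 27.9% of the 5526 such regions of AcH3 siME2.

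The acetylation shares rose with peak strength in control cells, apart from a dip in AcH3 siME2 from 41.1% to 39.9%. Deep regions with a siControl −log10 p below 5 had AcH2B siME1 in 74.8% and AcH2B siME2 in 48.3%, whereas the 228 with 12 or more had them in 99.6% and 94.7%. AcH3 went from 40.9% to 89.9% in siME1 and from 34.7% to 79.4% in siME2. HDAC3 siControl stood at 1.1% (7 regions) below 5 and 6.14% (14 regions) at 12 or more, with a fall from 2.10% to 1.74% between. HDAC3 siME1 was highest at 1.86%, from 7 to 9, and stood at 0.877% at 12 or more. Regions shared with AcH3 kept a higher AcH3 share within every range of strength, from 83.8% to 98.1% in siME1 and from 66.1% to 95.3% in siME2. These classes were set apart by AcH3 in control cells, so a gap in AcH3 follows in part from the choice at any strength. For AcH2B siME1 both classes reached 99.6% at the top.

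**Figure D2:**
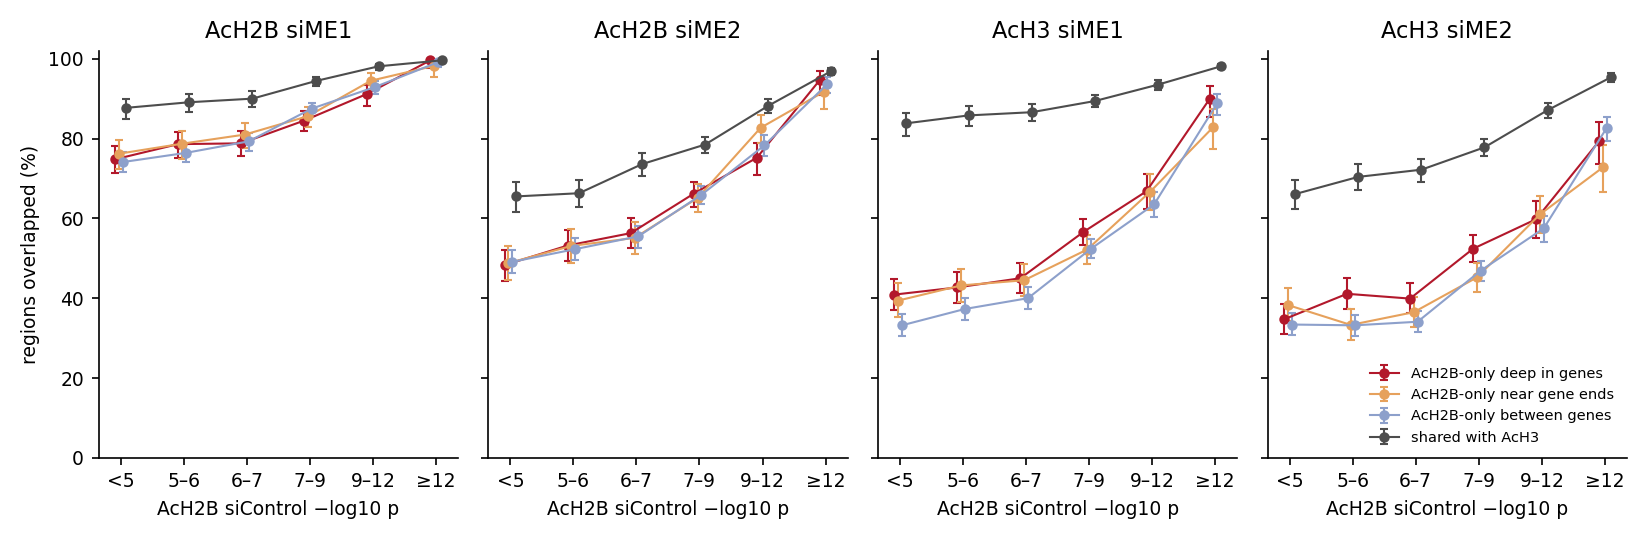
Share of regions overlapped by each knockdown acetylation list (percent, vertical axis) in 6 ranges of the AcH2B siControl −log10 p (horizontal axis), by class, with 95% Wilson intervals. The deep regions (red) go from 74.8% to 99.6% for AcH2B siME1 and from 40.9% to 89.9% for AcH3 siME1, and follow the other AcH2B-only classes more closely than the regions shared with AcH3.

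Where a deep region was listed in both lists, the fold over background was higher in siME1 than in siControl by a median ratio of 1.33 (quartiles 1.04 and 1.77), with medians of 5.42 and 4.02. In siME2 the median ratio was 1.15 (0.933 and 1.45), with medians of 4.73 and 4.09. Taking only the strongest summit inside the deep region gave 1.19 (0.950 and 1.52) for siME1 over 2175 regions and 1.07 (0.880 and 1.33) for siME2 over 1609, with 30.6% and 41.0% of regions below 1. The ratios did not set deep regions apart, since the same summit measure gave 1.17 to 1.22 in siME1 and 1.05 to 1.06 in siME2 for the other classes. AcH3 summits inside deep regions had a median fold of 4.17 in siME1 and 4.24 in siME2, and regions shared with AcH3 had 5.93 and 5.17. Regions that were too weak to be listed in a knockdown enter none of these ratios.

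**Figure D3:**
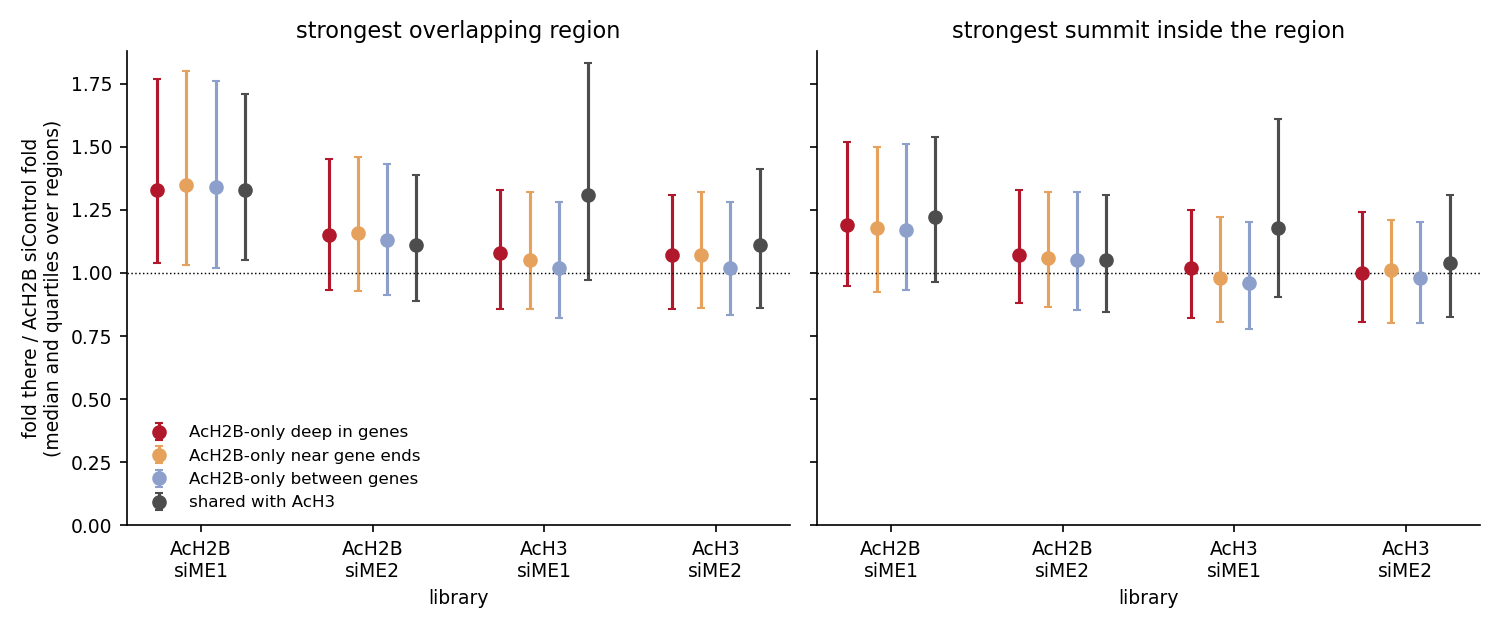
Ratio of the fold over background in each knockdown library to the AcH2B siControl fold of the same region (vertical axis), as median (point) and quartiles (bars) over regions of each class, for the strongest overlapping region (left) and the strongest summit inside the region (right). For deep regions (red) the AcH2B siME1 median is 1.33 on the left and 1.19 on the right, beside like values of the other classes; the AcH3 ratios compare different antibodies.

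The 3468 deep regions lay in 1022 host genes, which is 10.2% of the 9974 protein-coding genes longer than 20 kb, the length needed to hold one. Of the hosts, 424 (41.5%) held 1 deep region and 64 held 10 or more, and those 64 held 1243 deep regions (35.8%). Deep regions thus came in runs: 2506 (72.3%) had another within 10 kb, and the median gap between neighbours was 7.73 kb. Hosts were long, with a median of 122 kb against 45.4 kb for the other long genes. The share of genes that were hosts was 3.16% at 20 to 50 kb, 9.71% at 50 to 100 kb, 21.1% at 100 to 200 kb, 32.8% at 200 to 400 kb and 30.5% above 400 kb. Per Mb of gene sequence more than 10 kb from gene ends, chromosomes 11, 8 and 15 held 8.40, 8.24 and 7.07 deep regions and the X chromosome 2.52.

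Deep regions did not crowd toward the 5′ end of their hosts. The RefSeq start windows gave a strand for 766 hosts, and 1186 of 2572 deep regions there (46.1%, 44.2 to 48.0) lay nearer to the 5′ end of the gene than to its 3′ end, at a median of 77.2 kb from the 5′ end. Their midpoints fell inside a lncRNA gene in 6.17% of cases, where lncRNA genes cover 4.38% of the deep gene bases. They were within 1 kb of a lncRNA gene end in 2.42%, less than the AcH2B-only regions near gene ends (5.86%) and between genes (7.22%) and the regions shared with AcH3 (11.8%).

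Rad51b, which encodes a protein of homologous recombination, held the most deep regions, 115 over 486 kb of a 551-kb gene (chr12:79297282-79848260). Counting every listed region whose midpoint lay in the gene, AcH2B had 129, 213 and 160 in siControl, siME1 and siME2, and AcH3 had 16, 92 and 124. Fewer AcH3 regions were thus listed in Rad51b in control cells than in either knockdown. The gene was picked for regions without control AcH3, so a low AcH3 siControl count follows in part from the choice. Over all gene bases more than 10 kb from gene ends, the AcH3 lists covered 0.274%, 0.651% and 0.565% in siControl, siME1 and siME2. Of the 115 deep regions, 109 were overlapped by AcH2B siME1, 91 by AcH2B siME2, 50 by AcH3 siME1, 64 by AcH3 siME2 and 1 by each HDAC3 list. The AcH3 siME1 share, 43.5%, was below the 52.5% over all deep regions, and the AcH3 siME2 share, 55.7%, was above the 47.4% over all. The deep regions had a median siControl fold of 3.88 (2.70 to 9.88), and the strongest AcH2B siControl region of the gene, at 15.4, overlapped AcH3 and so was no deep region. The strongest deep region, chr12:79493910-79496466, held 43 fragments (exact 95% Poisson interval 31.1 to 57.9) at a fold of 9.88, and stood at 10.6 and 5.43 in AcH2B siME1 and siME2 and 8.82 and 5.14 in AcH3. Within 1 kb of the 5′ end of Rad51b, AcH3 had a fold of 7.60 in siControl and 5.13 in siME1 and was not listed in siME2. That end lies 0.959 kb from Zfyve26, so the region may belong to either gene. At the 3′ end AcH3 was not listed in siControl and stood at 6.20 and 5.07 in the knockdowns.

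**Figure D4:**
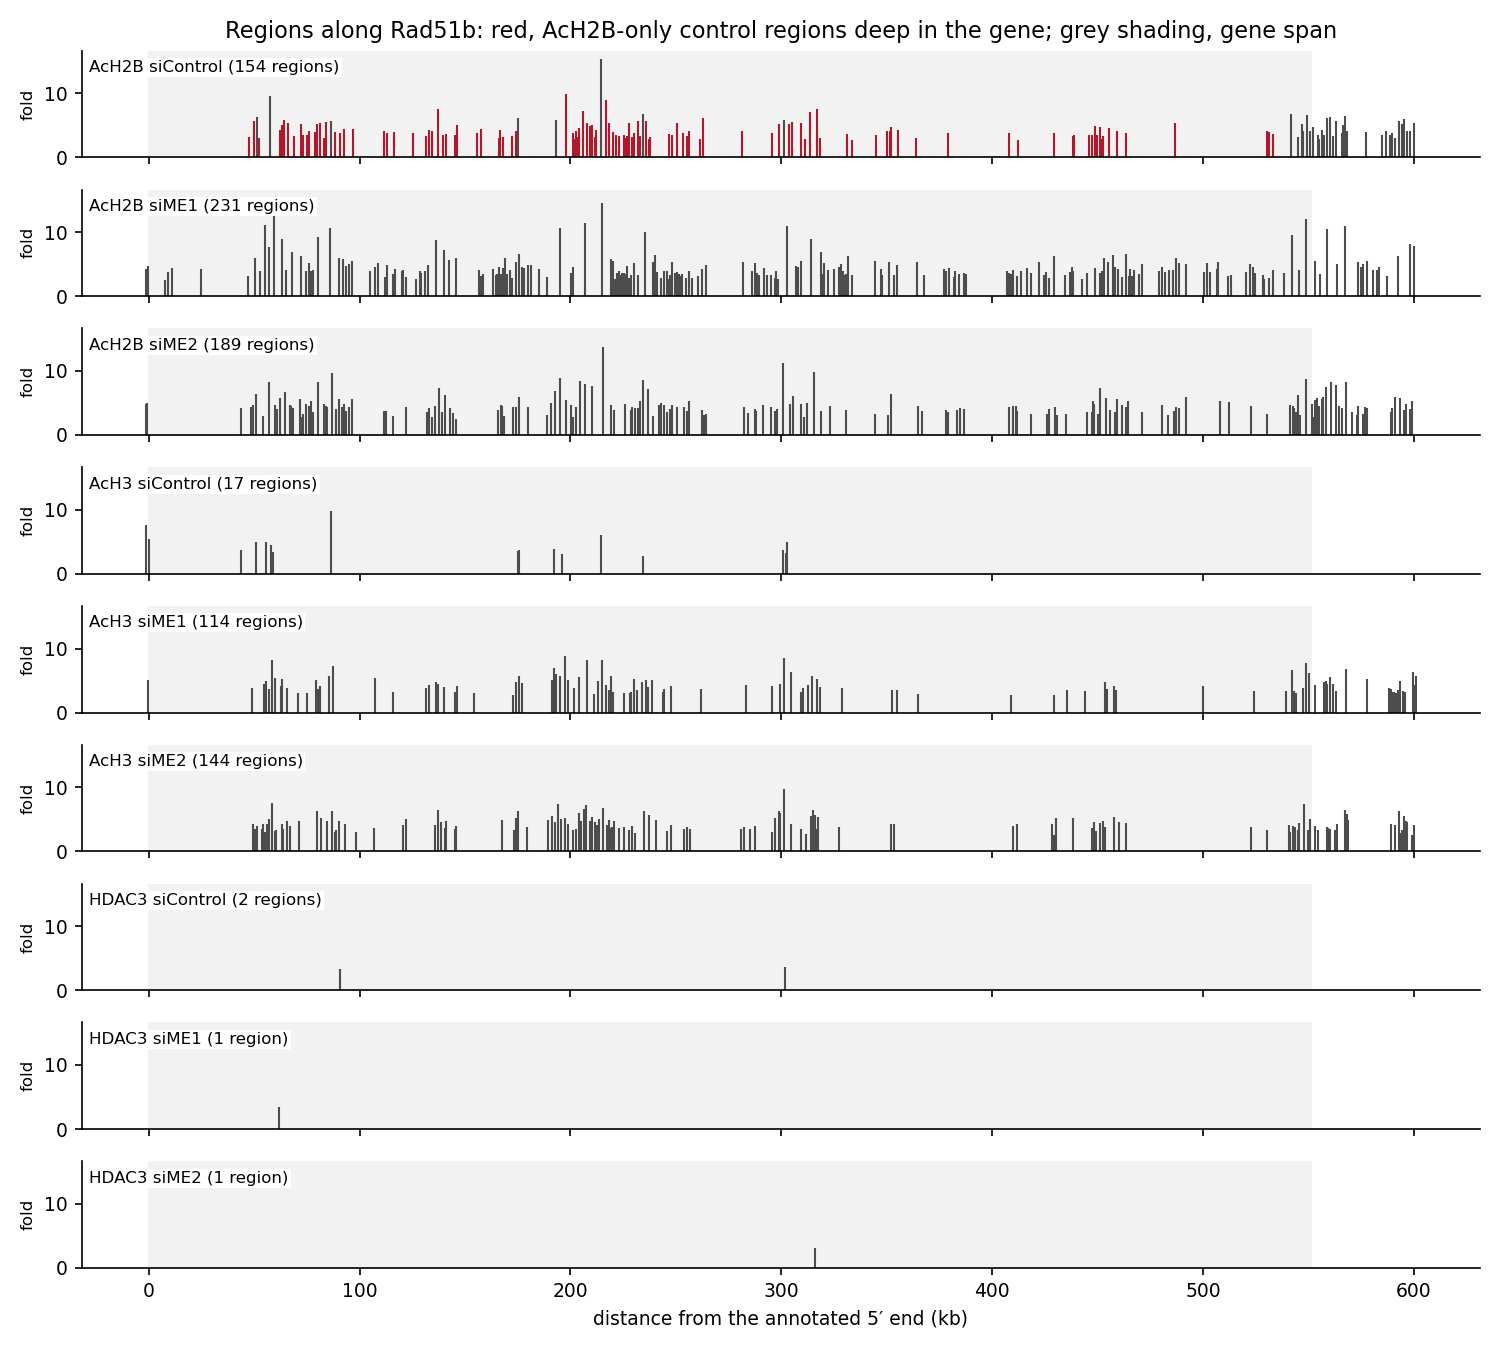
Every listed region along Rad51b and 50 kb to each side, by library, at its distance from the annotated 5′ end (kb, horizontal axis), with its fold over background as height (vertical axis, the same for all rows). The 115 deep regions are red; AcH3 goes from 17 listed regions in siControl to 114 in siME1 and 144 in siME2 over the stretch drawn, while HDAC3 has 2, 1 and 1.

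The next hosts by number were Syn3 (76), Dgki (41), Gas7 (41), Mylk (36), Slc14a2 (36), Trp63 (36), Babam2 (35), Smg6 (31) and Arnt2 (28). Together with Rad51b they held 475 deep regions (13.7%). Several of these encode proteins of other tissues: Syn3 is a synapsin of nerve terminals, Slc14a2 a kidney urea transporter, Trp63 the epithelial factor p63 and Gas7 a growth-arrest protein best known in neurons. In Syn3, Gas7 and Trp63 no library had a region within 1 kb of a gene end, although deep regions were dense there. Mylk and Arnt2 had an end region in AcH2B siME1 alone, at folds of 3.35 and 3.71. Syn3 encloses Timp3, the gene of a matrix metalloproteinase inhibitor, which had an AcH3 siControl end region at a fold of 5.07. The genes next to Dgki, Ptn and Creb3l2, had AcH3 siControl end regions at 10.3 and 11.1. Beside Babam2 they stood at 9.26 for Rbks, 0.329 kb away, 14.6 for Fosl2, an AP-1 gene 51.5 kb away, and 10.1 for Mrpl33, 75.3 kb away. The 5′ end of Babam2 itself stood at 9.26. Beside Mylk, Ccdc14 and Hacd2 had them at 5.90 and 8.51 and Ropn1 had none. Such end regions were common, at 54.8% of all long genes. No AcH3 siControl end region was listed for the neighbours of Gas7 (Myh13, Glp2r, Rcvrn and Gsg1l2), Slc14a2 (Siglec15 and Slc14a1) or for P3h2 beside Trp63, and beside Timp3 only Rtcb, 91.0 kb from Syn3, had one among the genes next to or overlapping Syn3, at a fold of 13.0. These neighbours were looked up after the counts were seen, and which gene a deep region acts on was not measured.

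The large hosts differed in how many of their deep regions were listed after knockdown. In Dgki, the gene of a diacylglycerol kinase, AcH2B siME1 overlapped 41 of 41 deep regions and AcH2B siME2 31. In Syn3 the corresponding counts were 47 and 36 of 76, the lowest AcH2B siME1 share (61.8%) of the 10 genes. Syn3 also had the lowest AcH3 siME1 share, 22 of 76 (28.9%), and 30 of 76 in siME2. Arnt2, which encodes a partner of basic helix-loop-helix PAS factors, had AcH3 at 18 of 28 in siME1 and at 8 of 28 in siME2, whereas Gas7 had 24 and 28 of 41 and Trp63 16 and 19 of 36. The larger AcH3 share thus fell to siME1 in some hosts and to siME2 in others. HDAC3 siControl was listed at 4 of 35 deep regions in Babam2, which encodes a subunit of BRCA1-A and BRISC complexes, and at 4 of 31 in Smg6, an endonuclease of nonsense-mediated decay.

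The 10 deep regions with the highest siControl −log10 p, chosen by that score, lay in Efemp1, Rad51b, Dgki, Ankrd55, Dchs2, Fmn1, Babam2 and Smg6, with Rad51b and Dgki holding a pair each. The first, chr11:28903118-28905423 in the gene of the matrix protein fibulin-3 (Efemp1), held 49 fragments (36.3 to 64.8). Its AcH2B fold ran 8.98, 11.8 and 8.93, and AcH3 was 7.96 and 7.71 in the knockdowns. Both antibodies thus had it listed in both knockdowns, and AcH2B alone in control cells. The deep region with the highest fold, chr13:112345908-112347007 in Ankrd55, went the other way, with AcH2B at 9.95, 5.65 and 5.60, and AcH3 at 5.51 and 5.30. Dchs2, a protocadherin gene, ran 9.71, 5.95 and 7.14, and Fmn1, which encodes the actin nucleator formin 1, ran 8.79, 5.19 and 6.82. These regions were picked for a high siControl score, so lower values in another library follow in part from the choice. Babam2 ran 8.76, 15.3 and 4.96.

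Beside Efemp1 and the Smg6 region described next, the strongest deep regions with AcH3 in both knockdowns lay in Wwp2, a ubiquitin ligase gene, in Mcph1 and the overlapping Angpt2, and in 1700011L22Rik. At Wwp2, AcH2B ran 3.63, 8.07 and 10.2, and AcH3 stood at 8.53 and 10.8. At Mcph1 and Angpt2, AcH2B ran 3.76, 12.7 and 11.6, and AcH3 stood at 7.38 and 8.46. At 1700011L22Rik, AcH2B ran 5.49, 10.3 and 7.36, AcH3 stood at 8.23 and 6.45, and HDAC3 siControl at 3.37. In these 3 the AcH2B fold was lowest in control cells. Regions with strong AcH3 in the knockdowns were picked here, so higher AcH2B there than in control cells may follow in part from the choice. Inside the Wwp2 deep region itself lay no AcH2B knockdown summit and no AcH3 siME1 summit, and an AcH3 siME2 summit of 5.79. Inside that of Mcph1 and Angpt2 the summits stood at 7.32 and 7.67 for AcH2B and 5.93 and 4.75 for AcH3.

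Smg6 held the deep regions with the strongest AcH2B siME1 signal. A single siME1 region (chr11:75043538-75056025), 12488 bp wide with 15 summits and a fold of 18.1, covered 8 deep regions and 1 region shared with AcH3. The first 5 of the 8 had siControl folds of 3.42, 3.45, 3.96, 5.57 and 3.95. The siME1 summits inside each of the 5 had folds of 4.89, 6.64, 9.65, 13.6 and 18.1, so the value of the whole region was met by the last of them and was well above the first. AcH3 siME1 summits stood at 13.0 in the last and at 10.6 in the one before. In siME2 the 5 deep regions whose overlapping AcH2B region had the highest −log10 p, a ranking not made by fold, were a pair in Smg6 (overlapping fold 14.5), 1 in Rad51b (13.7) and a pair in Copz1 (10.5), a coatomer subunit gene. The AcH2B siME2 summits inside them stood at 14.5 and 4.12 in Smg6, 4.54 in Rad51b, and 3.97 and 4.21 in Copz1. Only the first Smg6 region thus held the summit that gave the overlapping fold. The regions of this paragraph were picked by their knockdown AcH2B score, so lower siControl values may follow in part from the choice.

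At the other extreme, the 468 deep regions without AcH2B in either knockdown were led by peaks in Cacna1a, Nedd4l, Aff3, Eml1 and Stk3, with siControl folds of 5.36, 6.21, 6.18, 5.97 and 5.34 and 21 to 25 fragments each. At Nedd4l, a ubiquitin ligase gene, AcH3 was nonetheless listed in siME1 (3.27) and siME2 (4.37), at Eml1 in siME1 (3.82) and at Aff3 in siME2 (4.33). Cacna1a, a calcium channel gene, and Stk3, a Hippo pathway kinase gene, had no acetylation listed in either knockdown. Local background at the 5 was 2.19 to 3.36 on the scale of the deposited pileup, where the median over all deep regions was 3.04. Loss of a peak from a list was not tested against replicate spread.

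The strongest HDAC3 signal at deep regions was at 1700012B07Rik (5.15 in siME1), Smg6 (4.75 in siControl), Igf2r (4.72 in siControl), Elmo1 (4.63 in siME1) and Synpo (4.67 in siControl and 3.37 in siME1). Igf2r encodes the mannose 6-phosphate receptor that clears IGF2. Its deep region, chr17:12724571-12725549, had AcH2B at 7.01, 9.18 and 9.18 and an AcH3 summit inside it at 7.70 in siME1 and 6.03 in siME2. Synpo encodes the actin-associated protein synaptopodin, and its deep region had HDAC3 in siControl and siME1; those of Smg6 and 1700012B07Rik also had it in siME2, at 3.13 and 2.93. All 5 had AcH2B listed in all 3 libraries and AcH3 in both knockdowns.

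The host genes were grouped by 16 gene lists. Because the share of hosts was higher among longer genes, each list's count is set beside the number that the shares of its genes' length ranges would give. Actin cytoskeleton and adhesion genes were hosts in 16 of 31 long genes (51.6%, 34.8 to 68.0), where length alone gives 6.03. Genes of the Hippo pathway, TEAD, AP-1 and RUNX factors were hosts in 7 of 13 (53.8%, 29.1 to 76.8), where length gives 2.10. TGF-β and BMP genes had 6 of 22 (length 2.61), fibroblast and matrix genes 7 of 28 (4.09), insulin and growth factor genes 7 of 26 (4.09), and adipocyte genes 6 of 23 (5.02). Genes of other cell types did not hold fewer throughout: leukocyte genes had 5 of 20 (4.31) and endothelial genes 3 of 12 (1.80), but neuronal genes, which are the longest, had 5 of 30 where length gives 9.17. NADPH and malic enzyme genes had 2 of 16 (1.42), Wnt genes 3 of 18 (2.65), nuclear receptor and clock genes 5 of 22 (3.29), corepressor, acetyltransferase and deacetylase genes 5 of 21 (3.64), and muscle genes 3 of 20 (4.43). Epithelial and hepatocyte genes had 2 of 16 (2.39) and bone and cartilage genes 1 of 8 (1.35). The lists are small, the intervals wide, and no list was tested.

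**Figure D5:**
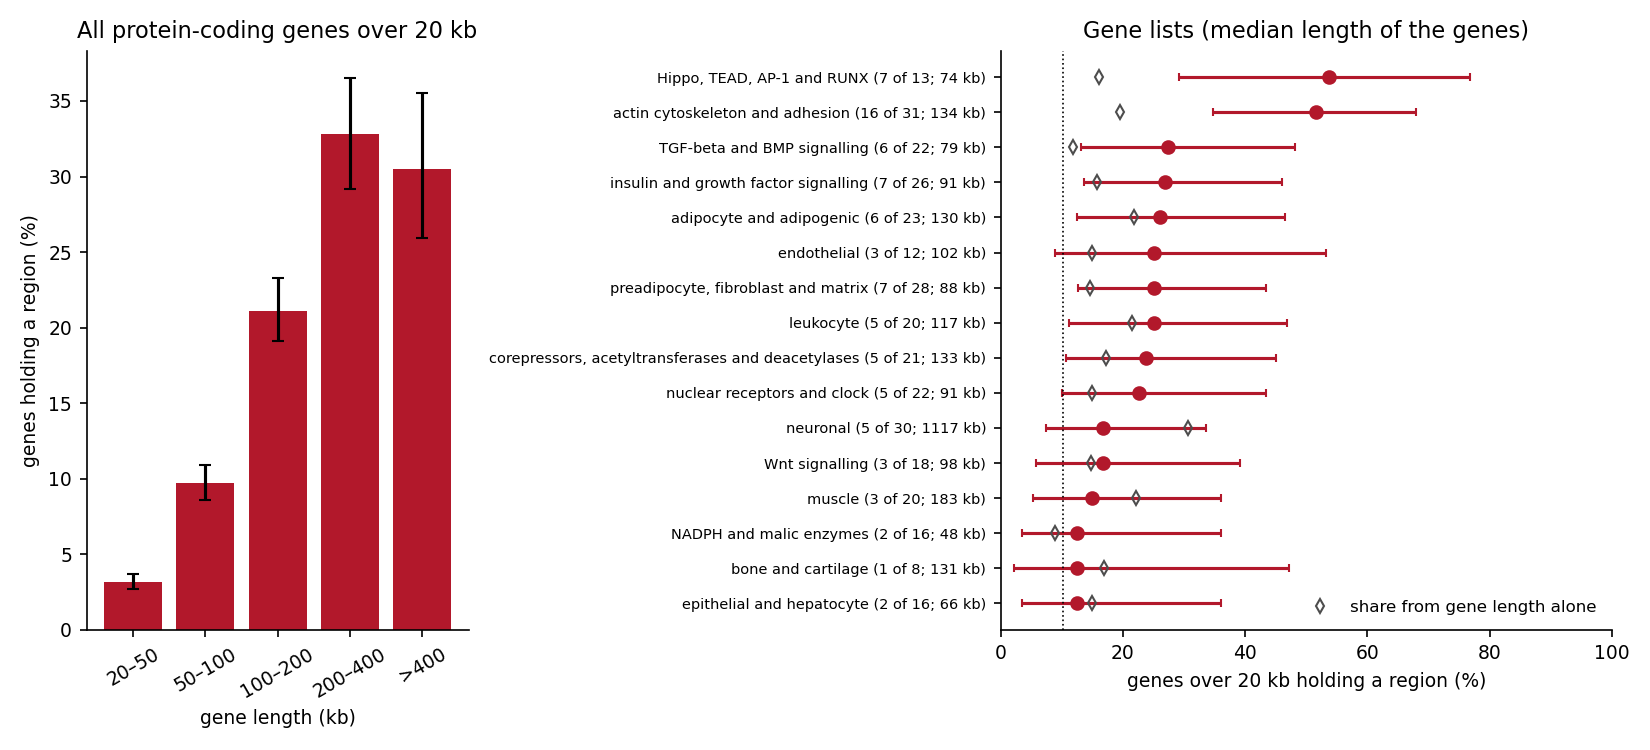
Share of protein-coding genes longer than 20 kb that hold a deep region (percent), by gene length (left, bars with 95% Wilson intervals) and by gene list (right, points with 95% Wilson intervals). Open diamonds give the share that the length ranges of a list's genes would give, and the dotted line the 10.2% of all long genes. The actin and Hippo lists lie right of their diamonds, at 51.6% and 53.8%, and the neuronal list lies left of its own.

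Among the actin and adhesion hosts, Sorbs2, an adaptor of actin-based adhesions, held 19 deep regions, Tns3 10, Mical2 8, and Tns1 and Lpp 6 each. In Tns3, the gene of the focal adhesion protein tensin 3, AcH2B was listed at 9 of 10 in siME1 and 6 in siME2, and AcH3 at 7 and 4. In Sorbs2 the counts were 14 and 9 for AcH2B and 9 and 11 for AcH3, and HDAC3 siControl was listed at 2. The 78 deep regions of this list had AcH2B siME1 in 66, AcH2B siME2 in 40, AcH3 siME1 in 47 and AcH3 siME2 in 36, where 82.4%, 61.6%, 52.5% and 47.4% of all deep regions had them, and nothing particular to the list is read from these counts. At its 5′ end Lpp, the gene of a LIM protein of focal adhesions, had AcH3 folds of 18.7, 11.9 and 8.21 across the siRNAs, and non-muscle myosin Myh9 had 20.7, 11.2 and 7.44 at its own. The median fold of the whole AcH3 list was also highest in siControl (5.70, 4.30 and 4.19), so nothing particular to these ends is read from the order. Sorbs2, Tns1 and Palld had no end region in any library.

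The Hippo list's hosts were Amotl1 and Runx2 with 3 deep regions each, Wwtr1 (TAZ), Tead4 and Vgll4 with 2 each, and Tead1 and Runx1 with 1. Of their 14 deep regions, 10 had AcH2B in siME1 and 7 in siME2, and AcH3 stood at 5 and 7, numbers too small to set against those shares. In the TGF-β list, Tgfbr3, the gene of the co-receptor betaglycan, held 7, with AcH3 at 5 in each knockdown. The signal transducer Smad3 held 5, all 5 of which had AcH3 in siME1 and 1 of which had it in siME2. The receptor gene Tgfbr2 had 3 deep regions with AcH3 at 3 in siME1 and 0 in siME2. Smad6, Ski and Smurf1 held 1 each, with AcH3 in both knockdowns. Of the 18 deep regions of the list, 16 had AcH3 in siME1 and 9 in siME2, where 52.5% and 47.4% of all deep regions had it. These counts are small and were not tested. Among Wnt genes Tcf7l1, a TCF family factor, held 5, with AcH3 at 5 and 4.

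Adipocyte-list hosts were led by transcription factors. Zfp423, a zinc finger factor of preadipocyte commitment, held 15 deep regions, of which 14 and 11 had AcH2B and 8 and 12 AcH3 in siME1 and siME2, while its ends had no region in any library. Zfp521, a related factor that opposes adipogenesis, held 5. Pparg, the master regulator of adipocyte differentiation, held 2 at siControl folds of 4.08 and 4.42, and AcH2B and AcH3 were each listed at 1 of the pair in each knockdown. The AcH3 fold at the 5′ end of Pparg was 7.14 in siControl and 3.48 in siME1, with none listed in siME2. Over the whole AcH3 lists the median fold was also lower in the knockdowns, at 4.30 and 4.19 against 5.70 in siControl. The transcription factor genes Ebf3 and Nfia and the protein kinase A subunit gene Prkar2b held 1 each. In the fibroblast list the collagen gene Col12a1 held 9, with AcH2B at 9 and 8 and AcH3 at 8 and 6, and Col4a2, Ltbp2, Col4a1 and Fbn1 held 4 or 5 each.

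In the insulin and growth factor list, Egfr, the epidermal growth factor receptor gene, held 19 deep regions over a 162-kb gene. AcH2B was listed at 19 in siME1 and 18 in siME2, and AcH3 at 11 in each, with no end region in any library. Grb10, which encodes an adaptor that restrains insulin receptor signalling, held 8, of which 6 and 2 had AcH2B and 1 and 2 had AcH3. Insr, the insulin receptor gene, held 1 with a fold of 3.68. The malic enzyme gene Me3 held 4 deep regions, with AcH2B at 3 and 1 and AcH3 at 2 and 1, and Mthfd1l, a mitochondrial folate enzyme gene, held 1. Among corepressor, acetyltransferase and deacetylase genes, class IIa deacetylase genes were hosts, with 3 in Hdac7 and 2 each in Hdac4 and Hdac9.

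Genes of other cell types were hosts as well, and the presence of acetylation inside them is no measure of their expression. Nrg1, the neuregulin gene, held 20 deep regions, with AcH2B at 13 and 12 and AcH3 at only 3 and 7. The leukocyte genes Vav3 and Elmo1 held 8 and 7, with AcH3 siControl folds of 6.62 and 5.61 at their 5′ ends. Only 3 of the 20 long genes of the leukocyte list had an AcH3 siControl end region, and its hosts Ets1 and Lyn had none. Trp63 gave 36 of the 39 deep regions of the epithelial list, the calcium channel gene Cacna1c 7 of 9 of the muscle list, and Mecom 6 of 12 of the endothelial list. Mecom had AcH2B at 1 of 6 in siME1 and 2 in siME2, a low count beside the 82.4% and 61.6% over all deep regions.

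The ends of the host genes were compared with those of other long genes. An AcH3 siControl end region was present at 599 of 1022 hosts (58.6%, 55.6 to 61.6), where 54.8% of all long genes had one. The gap was widest in the longest genes: of those above 400 kb, 49.5% of hosts and 15.6% of other genes had AcH3 at an end, and of those from 200 to 400 kb, 63.2% and 34.7%, whereas from 20 to 50 kb the values were 54.7% and 57.6%. AcH2B siControl was at the ends of 27.6% of hosts and 11.6% of all long genes. The rule used both of these libraries and the deep regions are themselves AcH2B siControl regions, so no more can be read from the latter. In the knockdown lists, end regions were present at 57.3% of hosts and 36.1% of all for AcH2B siME1, 41.3% and 28.5% for AcH2B siME2, 57.2% and 48.6% for AcH3 siME1, and 41.2% and 27.4% for AcH3 siME2.

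Each end was also followed on its own, since a gene can have a region at one end in one library and at the other end in another, as Rad51b does. Of 617 host ends with AcH3 in siControl, 261 (42.3%, 38.5 to 46.2) had none at the same end in siME2, against 2784 of 5036 ends of other long genes (55.3%, 53.9 to 56.7). In siME1 the shares were 13.9% (11.4 to 16.9) and 15.1% (14.1 to 16.1), with overlapping intervals. Of 1749 host ends without AcH2B in siControl, 380 (21.7%) had it in siME1, against 13.7% of other ends, and in siME2 the shares were 12.3% and 10.6%. Counted by gene, with a region at either end, 38.7% of 599 hosts and 54.0% of 4867 other long genes had AcH3 in siControl and none in siME2. The strength of the end regions was not matched between these groups.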

How the data were processed

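ChIP-seq peak tables of 9 libraries were used, 1 per antibody and siRNA, grouped by the antibody and siRNA labels (the HDAC3 samples carry H3 in their titles). Per the submitters' processing notes BWA, SAMtools, MACS2, bedtools and deepTools were used, with role and version not stated. The tables, deposited without a header, have 10 unnamed columns, read as a MACS2 peak table: pileup, a coverage signal at the summit, a −log10 p-value, a fold (ratio) over local background and a −log10 q-value, all deposited by the authors and specific to each list. The notes name the build mm8, but the deposited scaffold names are those of GRCm38 and a protein-coding gene end of the GRCm38.p6 RefSeq table was within 1 kb of 53.0% of the AcH3 siControl regions, so coordinates were read as GRCm38, counted from 1.

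Rows of 1 peak with several summits were joined into 1 region scored by the highest −log10 p, and 3 AcH2B siControl regions on an unplaced scaffold were left out. Deposited pileups were whole multiples of a step in 100% of rows (tolerance 0.05), which gave fragments per summit; sequencing depth beyond that is unknown. Regions sharing 1 bp or more overlapped, and the strongest overlapping region gave the fold. The gene table held 21627 protein-coding genes. Overlap and class code was tested on simulated data (Python 3.11.15, NumPy 2.4.6, pandas 2.3.3, SciPy 1.17.1). With 1 library a group no test across conditions was run. The deep regions, 16 gene lists and alternatives were chosen with earlier results of these data known. Genes were named by rule: the 10 with most deep regions, the hosts of the strongest deep regions (10 in siControl, 5 in each AcH2B knockdown list, 5 with AcH3 in both knockdowns, 5 without AcH2B in either, 5 with HDAC3), and list genes; nested lncRNAs, neighbours and miRNAs were chosen after their values were seen. Motifs had been meant for summit windows, which need a genome that was not used here, and were counted in RefSeq start windows instead.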

Additional observations from a re-analysis of the deposited data

How the results depend on the processing

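Of 88 recomputed values over 12 results, 45 stayed within the interval of the reported value and 43 did not. Requiring a reciprocal overlap of 50% gave shares of 23.1% and 27.1% for AcH2B in siME1 and siME2, 25.5% and 22.4% for AcH3, and 0.346%, 0.173% and 0.0865% for HDAC3 in siControl, siME1 and siME2, so siME1 no longer exceeded siME2 for AcH2B. A −log10 q of at least 3 in the other list (1.3 for HDAC3) gave 76.3%, 54.0%, 42.7% and 38.3%, and 0.144%, 0.0865% and 0% for HDAC3. Stricter deep regions (2470) gave 85.1%, 66.6%, 57.3% and 51.8%. Equal numbers of regions per list gave 62.5%, 47.8%, 36.5% and 39.6%, which puts AcH3 siME2 above siME1. Without AcH3 siControl within 1 kb (2855 regions), AcH2B siME2 was 59.9% and AcH3 48.4% and 43.5%. Alternatives added after seeing the data were a summit inside the deep region (62.7%, 46.4%, 40.7% and 36.2%; HDAC3 1.44%, 0.750% and 0.260%; median AcH2B ratios 1.19 and 1.07), hosts counted once (AcH2B 76.0% and 54.5%, AcH3 siME2 43.1%, HDAC3 siControl 1.65%) and leaving out the 10 top hosts (AcH2B siME2 59.9%). Median ratios were 1.43 for siME1 over regions in both knockdowns and 1.18 for siME2 as plain pileup over background. Hosts made up 8.60% of long genes with stricter deep regions and 12.1% of genes over 40 kb with a distance of 20 kb. Leaving out Rad51b moved no share out of its interval, and no deep region lay over high background. No paired analysis was possible because each group has 1 library. Peaks of few fragments limit HDAC3 most.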

Other observations

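Mature microRNAs lay inside 4 deep regions, found by position in the RefSeq table of GRCm38.p6 and not used by the rule. The sequences are shown 5′ to 3′ with the seed, bases 2 to 8, in capitals, because the AcH2B peaks cover the microRNA itself; the 4 seeds differ, and microRNA levels were not measured.
miR-6406 in Ntn1, chr11:68220917-68220938: cGCGACCUcaggcugacucaug
miR-3971 in Slc43a2, chr11:75551480-75551501: cUCCCCACcccuguaccaguga
miR-5110 in Bcas3, chr11:85760675-85760699: gGAGGAGGuagagggugguggaauu
miR-3473e in Rbks, chr5:31667296-31667316: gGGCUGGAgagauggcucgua

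The deep region of miR-3971, in the amino acid transporter gene Slc43a2, had AcH2B at folds of 7.27, 8.70 and 9.10 in siControl, siME1 and siME2 (4.37 for the siME2 summit inside it), and AcH3 at 8.40 and 3.86 in the knockdowns. That of miR-6406, in the netrin gene Ntn1, had AcH2B at 6.74, 7.50 and 5.43 and AcH3 at 4.41 and 4.63. That of miR-5110, in Bcas3, had AcH2B at 3.07, 4.35 and 6.13 and AcH3 at 3.89 and 3.91, the latter with no summit inside. By overlap, these 3 carried both marks in both knockdowns. The deep region of miR-3473e, in the ribokinase gene Rbks, had AcH2B at 6.60, 5.31 and 4.0 and no AcH3 in any library. HDAC3 was listed at none of the 4.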
